A study of Mus musculus with 40 samples.

Results

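Acetylation of lysine 27 on histone H3 (H3K27Ac) was compared between macrophages treated with Kdo2-lipid A (KLA) and untreated macrophages (notx), locus by locus across the genome. The groups were C57BL6/J and BALBc/J macrophages given KLA at 100 ng/ml for 1 hr, and macrophages of the same inbred strains given fresh medium alone. All cells were peritoneal macrophages elicited by the irritant thioglycollate, to which monocytes are recruited, and carried no engineered allele. The mark was profiled by ChIP-Seq on formaldehyde cross-linked cells in 1 library for each strain and treatment, 4 of the 40 samples of the series, so that the strains served as the 2 replicates. Whether the libraries stem from separate animals is not in the labels, so the p-values reflect no more than how these libraries vary. The same design gave H3K4me2, PU.1 and C/EBPa ChIP-Seq lists, GRO-Seq of nascent RNA at 1 hr and RNA-Seq at 1 and 4 hr, which were read beside H3K27Ac. Lists of p65 peaks were read too, but exist after KLA alone, 2 for each strain, with none from untreated cells.

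H3K27Ac is laid down by the acetyltransferases p300 and CBP and marks promoters and enhancers in use, whereas H3K4me2 marks promoters and enhancers whether or not they are in use. KLA is the active lipid part of bacterial lipopolysaccharide and triggers Toll-like receptor 4, which signals to NF-kB, AP-1 and the interferon regulatory factors. In macrophages PU.1 and C/EBP factors set out the enhancers at which these signal-dependent factors then bind. A mark measured in a population of cells cannot tell fewer marked cells from less signal per cell.

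Regions were called by the authors in each library separately. The KLA lists held 25937 regions in C57BL6/J and 26009 in BALBc/J, and the notx lists held 26992 and 26985. Regions that overlapped by at least 1 bp in any of the lists were merged into 36988 loci. Of these, 15335 loci had a region in all 4 lists and were tested, and they held 87.0 to 87.9% of the tags of each list. A further 2261 loci had regions in both KLA lists and in neither notx list, and 2934 had regions in both notx lists and in neither KLA list. These were not tested, since a list gives no value where no region was called.

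Most loci are far too long to print, and 1 promoter is shown for each of 6 genes whose transcription start lay in a locus that rose or fell, 4 higher and 2 lower, taken by size of change among the described loci with an entry, other than Cd14, whose sequence is not shown. The sequences are from RefSeq on build GRCm38.p6, cover the 250 bases before the transcription start and read 5′ to 3′ along the gene. Lower case is plain sequence, and capitals mark matches to a kappaB, AP-1, PU.1, C/EBP or ISRE motif on either strand. The genes Il1b, Tnip1, Traf1 and Isg15 lay in loci that rose, and Apoe and C130050O18Rik in loci that fell. Ehd1, Ccl5, Relb and Il27 had no entry.
Il1b (chr2:129371140-129371389, minus strand): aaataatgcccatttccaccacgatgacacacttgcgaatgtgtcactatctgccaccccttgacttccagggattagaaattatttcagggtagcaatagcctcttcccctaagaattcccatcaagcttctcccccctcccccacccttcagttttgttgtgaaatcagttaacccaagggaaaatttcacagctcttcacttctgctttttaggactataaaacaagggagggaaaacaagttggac
Tnip1 (chr11:54962941-54963190, minus strand): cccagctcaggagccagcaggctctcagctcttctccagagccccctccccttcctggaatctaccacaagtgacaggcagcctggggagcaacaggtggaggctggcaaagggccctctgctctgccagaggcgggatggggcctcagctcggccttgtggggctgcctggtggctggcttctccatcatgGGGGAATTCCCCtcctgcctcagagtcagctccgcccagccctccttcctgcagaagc
Traf1 (chr2:34961773-34962022, minus strand): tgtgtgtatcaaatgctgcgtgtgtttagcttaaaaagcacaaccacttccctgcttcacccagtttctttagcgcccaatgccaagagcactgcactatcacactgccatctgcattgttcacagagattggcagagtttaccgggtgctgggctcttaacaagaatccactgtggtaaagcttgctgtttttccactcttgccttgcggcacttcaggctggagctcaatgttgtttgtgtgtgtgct
Isg15 (chr4:156200819-156201068, minus strand): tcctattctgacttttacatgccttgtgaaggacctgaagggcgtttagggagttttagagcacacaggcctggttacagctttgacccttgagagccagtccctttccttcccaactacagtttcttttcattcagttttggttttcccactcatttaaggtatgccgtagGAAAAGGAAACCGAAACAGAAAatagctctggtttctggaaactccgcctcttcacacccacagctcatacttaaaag
Apoe (chr7:19699189-19699438, minus strand): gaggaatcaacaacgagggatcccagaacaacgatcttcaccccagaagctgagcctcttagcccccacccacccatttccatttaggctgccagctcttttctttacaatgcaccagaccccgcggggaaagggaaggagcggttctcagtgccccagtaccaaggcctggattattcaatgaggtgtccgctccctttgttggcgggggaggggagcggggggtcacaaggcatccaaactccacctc
C130050O18Rik (chr5:139405034-139405283, plus strand): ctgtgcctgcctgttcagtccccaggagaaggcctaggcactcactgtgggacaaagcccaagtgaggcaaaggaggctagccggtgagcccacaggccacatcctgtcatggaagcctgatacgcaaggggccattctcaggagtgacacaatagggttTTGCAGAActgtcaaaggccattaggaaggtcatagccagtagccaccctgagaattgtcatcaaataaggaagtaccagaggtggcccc

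The Tnip1 promoter held the palindromic kappaB run GGGGAATTCCCC between 58 and 47 bases before the start, read as 3 overlapping matches. The Isg15 promoter held an interferon-stimulated response element, also as 3 overlapping matches, between 78 and 57 bases before the start. The C130050O18Rik promoter held a C/EBP match, and the Il1b, Traf1 and Apoe promoters held no match in this window. The kappaB motif stood in 15.3% of the 347 entries of genes in loci that rose and 8.26% of the 1198 entries of genes in loci that fell, against 7.25% of all 32851 mouse promoter entries of the same length. The AP-1 motif TGANTCA stood in 8.93% of entries in higher loci, 4.01% in lower loci and 6.75% of all entries. The ISRE motif stood in 4.32%, 2.42% and 2.98% of the same entries, the C/EBP motif TTGCNNAA in 7.78%, 9.85% and 9.56%, and the PU.1 core GAGGAAGT in 2.59%, 2.59% and 2.44%. The kappaB letters can overlap with themselves on the opposite strand, and a match is a description of letters and not a binding site.

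After KLA, H3K27Ac fell at more loci than it rose. The measure was the tag sum of a locus, that is the tags of its regions with at most 1 tag per position, per 10 M such tags of the library. On the scale log2(tag sum + 10), 1067 loci were higher after KLA (6.96% of those tested) and 3379 were lower (22.0%), by limma with a Benjamini-Hochberg adjusted p under 0.05 and a change of at least 1. The median change over all tested loci was −0.34, and each library's share of unique-position tags that fell inside regions was 36.7 and 33.6% in KLA against 50.4 and 41.6% in notx (C57BL6/J and BALBc/J). The part of that difference in the counts was not tested. With all tags, repeats at a position included, the shares were 46.4 and 50.7% in KLA against 53.5 and 55.0% in notx. On that measure, added after seeing the data, 1417 loci were higher (9.24%) and 2731 lower (17.8%), with a median change of −0.12. When tag sums without repeats were centred on each library's median, which added 0.37 to every change, 1856 loci were higher (12.1%) and 2192 lower (14.3%). The share of calls that were higher thus moved to 45.8% from 24.0%, all 1067 higher calls held, and 2192 of the 3379 lower calls held. Changes below are given without centring, and a locus named as higher or lower had that direction under both scalings unless stated.

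The strains gave like changes. Across the 15335 loci the change in C57BL6/J and the change in BALBc/J had a Pearson r of 0.76 and a Spearman rho of 0.71, as a description of loci that share libraries. All 4446 called loci changed in the same direction in both strains, which the test favours by design, as did 67.1% of the 10889 loci not called. Among the tested loci 416 moved in opposite directions by at least 0.5 in each strain, and none of these was called.

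**Figure D1:**
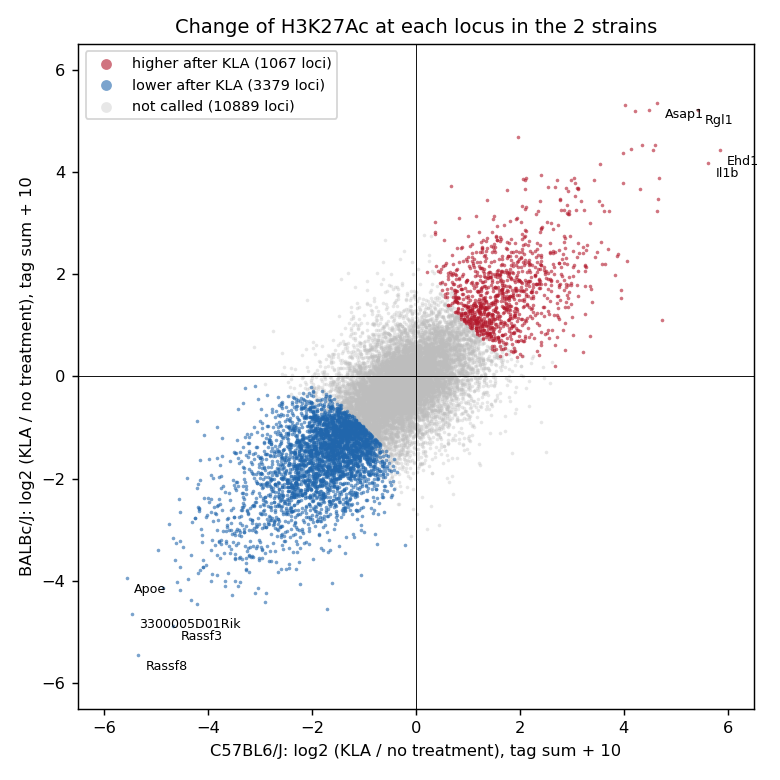
Log2 change of the H3K27Ac tag sum, KLA over notx, in C57BL6/J (x axis) against BALBc/J (y axis), 1 point for each of 15335 loci. Red points are the 1067 loci higher after KLA, blue points the 3379 lower and grey points those not called; the 4 loci with the largest change in each direction carry their nearest gene's name, and called points lie to the lower left and upper right.

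The largest gains were at intronic and distal loci as well as at promoters. A locus is named by the gene with the nearest transcription start, which need not be the gene it acts on. Inside Rgl1, which encodes an exchange factor for the Ral GTPases, a locus 38343 bp from the start (chr1:154419874-154433898, mm9) held 1262 and 1396 tags per 10 M in KLA, against 19.6 and 27.9 in notx (C57BL6/J and BALBc/J). Both KLA libraries were far above both notx libraries, and the fitted change was 5.32 ± 0.29 (SE, limma adjusted p = 2.27e-05). The start of Ehd1, which encodes an ATPase of endocytic recycling, lay in a locus (chr19:6267540-6280188) with 2256 and 2170 tags per 10 M in KLA and 29.4 and 91.7 in notx, a change of 5.13 ± 0.34 (SE, limma adjusted p = 3.24e-05). Nascent and mature Ehd1 RNA also rose, with log2 changes of 2.90 in GRO-Seq, 2.87 in RNA at 1 hr and 4.37 in RNA at 4 hr.

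The start of Ccl5, a chemokine that draws T cells and monocytes, lay in a locus that covered 25804 and 25176 bp in KLA and 3961 and 1535 bp in notx (chr11:83340728-83366602). Its tag sum was 3190 and 2673 tags per 10 M in KLA, against 163 and 63.8 in notx. The libraries did not overlap between treatments, and the change was 4.70 ± 0.28 (SE, limma adjusted p = 3.07e-05). Ccl5 RNA at 4 hr was 30780 and 20008 tags per 10 M in KLA, against 165 and 151 in notx. At 1 hr, when the mark was measured, Ccl5 RNA was 253 and 490 tags per 10 M and did not pass the test, with a log2 change of 1.11, while nascent Ccl5 RNA was 163 and 172 tags per 10 M in KLA and 0.508 and 1.24 in notx.

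Il1b, which encodes the cytokine interleukin 1 beta, had a distal locus 34296 bp upstream of its start with 645 and 725 tags per 10 M in KLA and 3.30 and 30.6 in notx. Its change of 4.90 ± 0.40 (SE, limma adjusted p = 4.93e-05) exceeded that of the locus at the Il1b start itself. The other loci among the 15 largest gains lay nearest Asap1 (4.99), Mir1907 inside Trps1 (4.85), 4930529L06Rik (4.66), 4933417E11Rik (4.56), Gm20139 (4.49), Alkbh3 inside Hsd17b12 (4.44), Flrt3 (4.29), Clic5 (4.27), Met (4.17), Bend6 (4.07) and Src (3.98). Of these genes Met, the receptor of hepatocyte growth factor, and the tyrosine kinase Src behaved alike: nascent RNA rose by 2.80 and 2.17, RNA at 1 hr was at −0.32 and −0.14 and not called, and RNA at 4 hr rose by 3.56 and 3.45. Flrt3 rose by 2.91 in GRO-Seq, 2.37 in RNA at 1 hr and 1.27 in RNA at 4 hr. Clic5, not tested in GRO-Seq, rose by 1.98 in RNA at 4 hr. Asap1 and Alkbh3 were at −0.18 and −0.10 in GRO-Seq and were not called there or in RNA at either time. The Rgl1 gain had no gain of Rgl1 RNA beside it, with −0.51 in GRO-Seq, not called, and −1.24 in RNA at 4 hr, called lower.

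The largest loss was 2688 bp from the start of Rassf8, which encodes a Ras association domain protein (chr6:145740567-145754214). This locus held 17.6 and 21.8 tags per 10 M in KLA, against 1112 and 1382 in notx. Its regions covered 629 and 500 bp in KLA and 11168 and 11805 bp in notx, and the change was −5.40 ± 0.29 (SE, limma adjusted p = 2.27e-05). Rassf8 nascent RNA fell by 1.77 and RNA at 4 hr fell by 2.67, while RNA at 1 hr stood at −0.49 and was not called.

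Apoe encodes apolipoprotein E, a lipid carrier that macrophages make in large amounts. The locus over the starts of Apoe and Apoc1 (chr7:20277552-20286812) held 20.5 and 39.7 tags per 10 M in KLA and 1436 and 755 in notx. The treatments did not overlap, and the change was −4.76 ± 0.38 (SE, limma adjusted p = 4.93e-05). Apoe RNA was not called at either time. It was 90988 and 76307 tags per 10 M in KLA at 1 hr and 95458 and 47035 in KLA at 4 hr, against 112849 and 68134 in notx, and its nascent RNA was 127 and 337 tags per 10 M in KLA and 367 and 454 in notx. That change of −0.94 (limma adjusted p = 0.0101) passed the p threshold and missed the fold threshold.

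The other large losses lay nearest 3300005D01Rik inside Zdhhc14 (−5.05), Rassf3 (−4.78), C130050O18Rik (−4.50), Rhoj (−4.35), Sipa1l2 (−4.35), Arhgap24 (−4.33), Fbxw7 (−4.32), Cebpg inside Pepd (−4.18), Nars2 (−4.17), Zfp395 (−4.13), Abhd12 (−4.11), Umps inside Itgb5 (−4.02) and 4632428N05Rik (−3.97). Rhoj, Arhgap24 and Sipa1l2 encode regulators or members of the small GTPase families, and both Rassf genes encode Ras association domain proteins. These nearest genes were grouped after their names were seen, and such genes were not counted over all loci. Rgl1, at the largest gain, likewise encodes a regulator of GTPases. Fbxw7, the substrate receptor of a ubiquitin ligase, fell in GRO-Seq by 1.45 and in RNA at 4 hr by 1.55. The locus inside Itgb5, which encodes an integrin subunit, was the widest of this group. It held 242 and 237 tags per 10 M over 5183 and 4548 bp in KLA, against 4587 and 3551 tags per 10 M over 32831 and 27842 bp in notx.

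**Figure D2:**
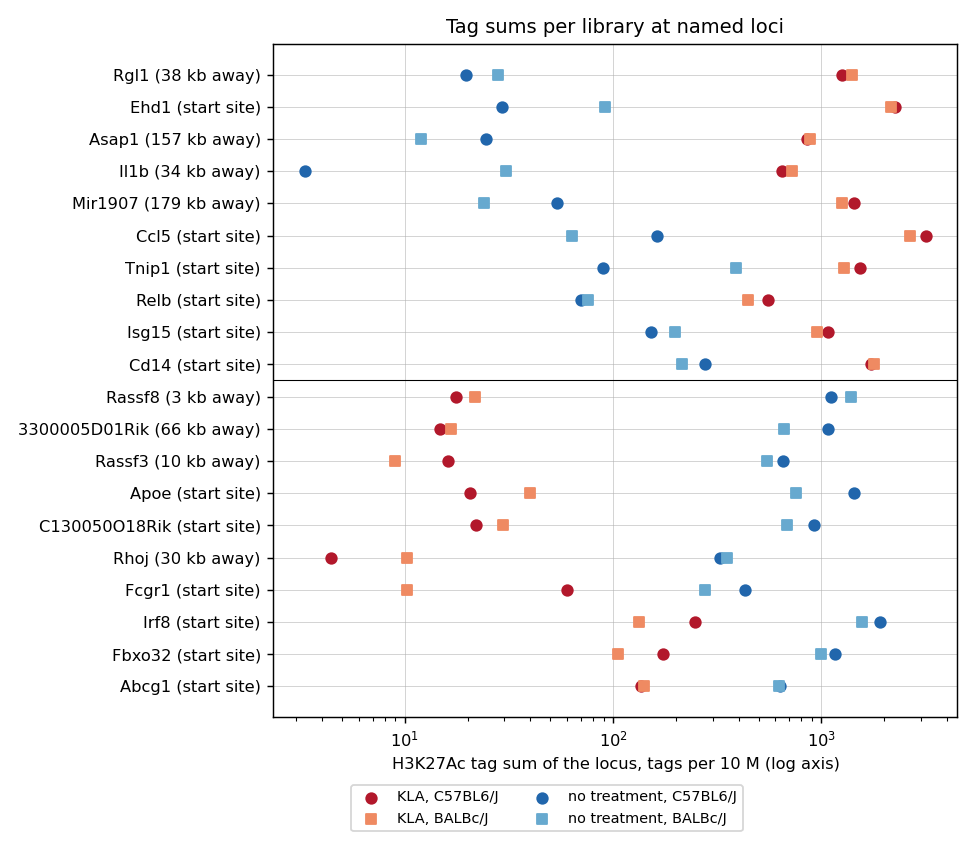
H3K27Ac tag sum of 20 named loci in each of the 4 libraries, in tags per 10 M on a log axis. KLA libraries are in red and orange and notx libraries in shades of blue. The 10 loci above the line are higher after KLA and the 10 below it lower, and in every row the 2 KLA points lie on the same side of both notx points, as at Ccl5 (3190 and 2673 in KLA, 163 and 63.8 in notx). The loci are those with the largest changes and members of the gene lists picked by name among called loci. Their separation thus follows from the choice and carries no test.

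Both the width and the density of the mark changed. A sum over called regions moves with how much was called, so the covered length and the tags per kb were tested separately, each with a threshold of 0.5 on the log2 scale. Covered length was greater after KLA at 921 loci (6.01%) and smaller at 1558 (10.2%). Tags per kb were higher at 279 loci (1.82%) and lower at 2078 (13.6%), and after centring at 779 (5.08%) and 650 (4.24%). Of the 1067 loci with a higher sum, 684 (64.1%) were also called longer and 231 (21.6%) denser. Of the 3379 with a lower sum, 1435 (42.5%) were called shorter and 1764 (52.2%) less dense.

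In the loci that rose, the median covered length was 4251 and 4191 bp in KLA, against 1613 and 1686 bp in notx, and the median density 76.8 and 69.3 tags per kb in KLA against 53.7 and 46.2 in notx. In the loci that fell, it was 1605 and 1661 bp in KLA, against 3271 and 3225 bp in notx, and the median density 44.4 and 39.7 tags per kb in KLA against 90.8 and 73.4 in notx. These values chose the loci and carry no test. Il27, which encodes a subunit of the cytokine interleukin 27, showed width without density: its locus covered 17169 and 16864 bp in KLA and 2817 and 2563 bp in notx, a length change of 2.66 ± 0.12 (SE, limma adjusted p = 0.0119). Its density was 74.7 and 61.3 tags per kb in KLA and 58.5 and 78.3 in notx, so that the treatments overlapped. Atf3, a stress-induced AP-1 family member, showed the reverse: the locus at its start covered 8917 and 9091 bp in KLA and 10162 and 10553 bp in notx, while its density was 80.7 and 56.2 tags per kb in KLA and 175 and 151 in notx, a density change of −1.26 ± 0.25 (SE, limma adjusted p = 0.00103).

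The largest length gains that are not among the largest sums already given included a locus 52345 bp from the microRNA gene Mir222, which covered 7131 and 9213 bp in KLA and 500 bp in each notx library (length change 4.02 ± 0.21, SE). A width of 500 bp is the smallest unit from which the authors stitched regions. The largest length losses, beside Rassf8 and Apoe, lay nearest Clec9a (−3.54), Ntpcr (−3.53) and Tmem144 (−3.34).

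H3K4me2 changed at few of the same loci. All 4 H3K4me2 lists overlapped 15013 of the tested loci. There, the 5th to 95th percentiles of the log2 change ran from −2.12 to 1.27 for H3K27Ac and from −0.38 to 0.34 for H3K4me2. With the same limma test 1024 of these loci were higher and 3333 lower in H3K27Ac, against 10 higher (0.0666%) and 11 lower (0.0733%) in H3K4me2. An unadjusted p under 0.05 was found at 6389 loci in H3K27Ac and 1493 in H3K4me2. The difference between the marks was tested directly by limma. The response of H3K27Ac exceeded that of H3K4me2 at 891 loci (5.93%) and fell below it at 2911 (19.4%), and after centring at 1536 and 1662. At the Rassf8 locus H3K4me2 was 1360 and 1496 tags per 10 M in KLA and 1228 and 1255 in notx, a change of 0.20 that was not called, and the difference of responses was −5.60 ± 0.24 (SE, limma adjusted p = 0.00165). At Ehd1, H3K4me2 was 1721 and 2026 tags per 10 M in KLA and 1470 and 2301 in notx, and the difference of responses was 5.11 ± 0.46 (SE, limma adjusted p = 0.00183).

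The Il1b start was an exception. H3K4me2 there was 504 and 471 tags per 10 M in KLA and 141 and 190 in notx, a change of 1.52 (limma adjusted p = 0.00596), and the response of H3K27Ac, larger by 1.44, did not differ from it beyond the error (limma adjusted p = 0.114). The loci near Mir222 and Pou1f1 gained H3K27Ac where H3K4me2 was low. Near Mir222, H3K4me2 was 21.7 and 59.1 tags per 10 M in KLA and 87.0 and 179 in notx, and it was not called.

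Genes of the inflammatory response were described as groups by the locus over their transcription start. The gene lists here and below were chosen with earlier results of these data known, so their shares are descriptions and carry no test. Over all 8136 tested loci with a start inside, 4.17% were higher and 13.7% lower, and the median change was −0.24. Of 33 cytokine and chemokine genes, 17 had a start in a tested locus, 13 were higher and none lower, with a median of 1.74. Of 26 genes for NF-kB signalling and its inhibitors, 23 were in tested loci, 9 higher and 1 lower, with a median of 0.82. Of 29 interferon response genes, 22 were in tested loci, 8 higher and none lower, with a median of 0.64. Of 30 immediate early genes, 27 were in tested loci, 4 higher and 1 lower, with a median of 0.28. After centring, the higher counts were 14, 13, 11 and 8 and the lower counts the same. Over all 8136 loci with a start inside, 8.67% were then higher and 7.21% lower. A gene counts here only if acetylation was called in every library, and 11 cytokine genes had starts in loci that did not meet this and 5 in no locus.

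Among the cytokines, the locus over the Il1b start held 679 and 1267 tags per 10 M in KLA, against 155 and 78.4 in notx, a change of 2.96 ± 0.38 (SE, limma adjusted p = 0.000338). Il23a, a subunit of interleukin 23, changed by 2.37, and Cxcl2, a chemokine for neutrophils, by 1.90. Tnf encodes tumor necrosis factor and shares its locus with Lta. This locus was already wide, with 3202 and 2700 tags per 10 M over 25393 and 25581 bp in KLA and 727 and 823 tags per 10 M over 7738 and 10034 bp in notx. The treatments did not overlap, and the change of 1.91 ± 0.22 (SE, limma adjusted p = 0.0002) stood beside a change of 4.21 in nascent Tnf RNA. Vegfa, an angiogenic growth factor, had 83.6 and 74.3 tags per 10 M in KLA and 278 and 108 in notx, and its change of −1.05 was not called.

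In the NF-kB group, Tnip1, which restrains NF-kB signalling through ubiquitin, had 1528 and 1287 tags per 10 M in KLA and 89.8 and 391 in notx. The notx libraries differed from each other, and both lay below the KLA libraries (change 2.82 ± 0.42, SE, limma adjusted p = 0.00076). The NF-kB subunit Relb changed by 2.61, the adaptor Traf1 by 2.55 and the subunit Nfkb2 by 1.57. Map3k8, the kinase that leads from Toll-like receptors to ERK, was the member that fell, with 497 and 552 tags per 10 M in KLA and 1477 and 1343 in notx (change −1.41). Nfkbia, the inhibitor IkBa that NF-kB induces to shut itself down, had 704 and 657 tags per 10 M in KLA and 617 and 582 in notx. That difference of 0.18 ± 0.23 (SE, limma adjusted p = 0.599) was within the error, whereas its nascent RNA was 1333 and 1543 tags per 10 M in KLA and 126 and 118 in notx.

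Among interferon response genes, the ubiquitin-like modifier Isg15 had 1079 and 957 tags per 10 M in KLA and 152 and 198 in notx. The treatments were well apart (change 2.48 ± 0.26, SE, limma adjusted p = 0.000136), and the same locus also covers the starts of Agrn and AW011738. Oasl1 changed by 2.13, and the guanylate-binding proteins Gbp2 and Gbp3 by 1.92 and 1.91. At Gbp2 the change was 3.03 in C57BL6/J and 0.81 in BALBc/J. Gbp genes are close relatives, and their tags cannot be fully told apart. Of the 29 interferon genes tested in RNA, 4 were higher at 1 hr and 29 at 4 hr, where 1.82% and 8.1% of all genes were higher. Among immediate early genes, the phosphatase Dusp4 changed by 2.38, the small Maf protein Maff by 1.25 and the zinc finger factor Egr1 by 1.18, while the locus of Atf3 fell by 1.46. The largest RNA change of these at 1 hr was that of Egr1, 5.67, and the largest acetylation change that of Dusp4, whose RNA changed by 1.85.

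Macrophage identity genes changed in both directions. Of 29 genes, 25 were in tested loci, 10 were lower (40.0%) and 3 higher (12.0%), against 13.7% and 4.17% of all loci with a start inside, and their median was −0.76. After centring 9 were lower, without Maf, and 3 higher, against 7.21% and 8.67% of all loci with a start inside. Those higher were the lipopolysaccharide co-receptor Cd14 (2.80), the receptor Tlr2 (1.32) and the scavenger receptor Msr1 (1.28). Those lower included Fcgr1, Irf8, Lyz2, Mertk, Fcgr3, Cebpa, Itgam, Tlr4 and Maf. Fcgr1, the high-affinity receptor for immunoglobulin G, had 60.1 and 10.2 tags per 10 M in KLA and 430 and 276 in notx (change −3.24 ± 0.38, SE, limma adjusted p = 0.000222). Its nascent RNA was 4.81 and 4.70 tags per 10 M in KLA and 75.7 and 50.7 in notx, and its RNA at 4 hr rose by 1.99.

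Irf8, a lineage factor of monocytes and macrophages, had 248 and 133 tags per 10 M in KLA and 1916 and 1559 in notx. All of the KLA values lay far below the notx values (change −3.18 ± 0.25, SE, limma adjusted p = 4.63e-05). Irf8 RNA was 1617 and 1455 tags per 10 M in KLA at 1 hr and 3379 and 4845 in KLA at 4 hr, against 2217 and 2084 in notx. Csf1r, the receptor of the macrophage growth factor, had 846 and 762 tags per 10 M in KLA and 1795 and 1086 in notx, and its change of −0.79 missed the fold threshold.

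Of the called loci of metabolic and FoxO genes all were lower, where 13.7% of all loci with a start inside were lower and 4.17% higher, and after centring 1 (Ccng2, a cyclin of FoxO-dependent cell cycle arrest) was higher. Of 13 FoxO and arrestin-domain genes in tested loci, 4 were lower (30.8%) and none higher, with a median of −0.60. This list too was chosen with earlier results known, so its share beside that of all loci is no test. The muscle ubiquitin ligase gene Fbxo32, a FoxO target, had 173 and 105 tags per 10 M in KLA and 1166 and 991 in notx (change −2.90 ± 0.26, SE, limma adjusted p = 6.83e-05), and its nascent RNA fell by 4.25. The locus of Foxo3, itself a FoxO factor, changed by −2.50, and those of Cited2 and Arrdc2 by −1.20 and −1.15. Centring left Fbxo32 and Foxo3 lower. Of 16 glycolysis genes, 4 were lower, or 25.0% (Pkm −1.65, Pfkfb3 −1.44, Pgam1 −1.43 and Ldha −1.18), and none higher. After centring Ldha was no longer called, and 7.21% of all loci with a start inside were lower and 8.67% higher.

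Of 16 sterol and LXR target genes, 2 were lower (12.5%, near the 13.7% of all loci with a start inside), Apoe and the cholesterol exporter Abcg1, the second with 136 and 141 tags per 10 M in KLA and 630 and 626 in notx (change −2.10). Its relative Abca1 stood at −0.85 and was not called. Of 17 genes for histone acetylation writers, erasers and readers, 2 were lower (11.8%, likewise near 13.7%), the deacetylase Hdac5 (−1.06) and the p300 partner Cited2, and neither after centring. None of 10 reference genes was called, and their median was −0.27. Actb had 1671 and 1841 tags per 10 M in KLA and 1794 and 1398 in notx, so that the treatments overlapped.

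The cells carried the RNA of macrophages: all 8 defining genes were present, between 192 and 55532 tags per 10 M. Markers of other blood cells were mostly low in RNA, up to 341 tags per 10 M for S100a8 and 234 for Lck. Under 20 tags per 10 M in all 6 libraries were 6 of 7 markers of T and NK cells, 3 of 5 of B cells, 5 of 6 of neutrophils and 5 of 8 of eosinophils and mast cells. None of 7 markers of mesothelial cells and fibroblasts was under this level, with Dcn at up to 1968 tags per 10 M, their RNA summed to 1769 and 3643 tags per 10 M in KLA at 1 hr and 2650 and 4155 in notx, and none of the 7 had an acetylated locus over its start. Of the markers of other cells, 3 had a start in a tested locus: Ms4a1 (−1.41) and Siglec5 (−1.76) were lower, and S100a8 (−0.89) was not called. Their part in the losses was not tested.

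**Figure D3:**
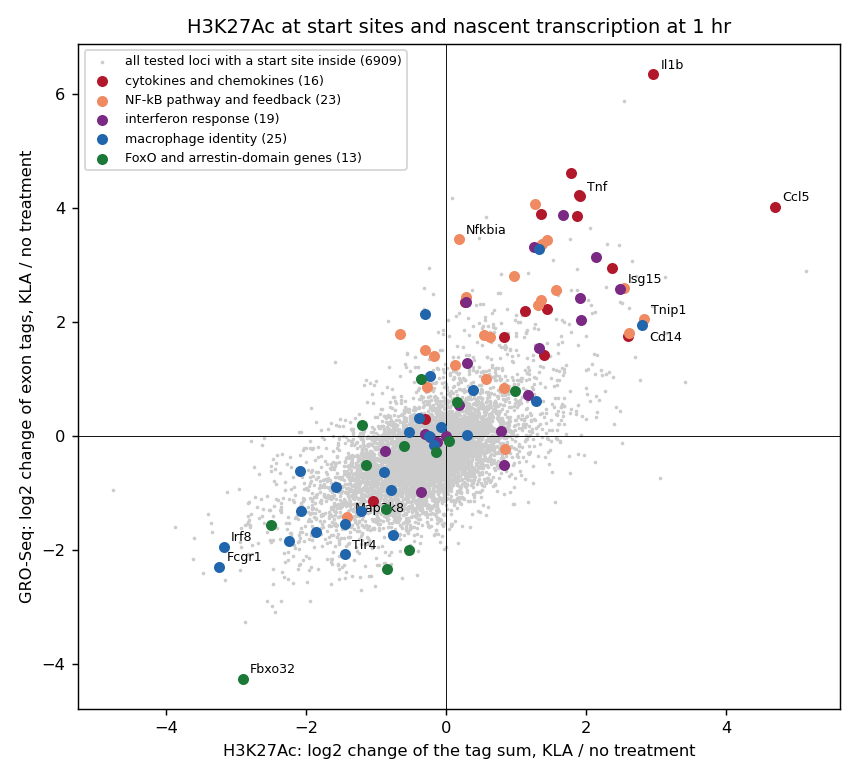
Change of nascent RNA in GRO-Seq (y axis, log2 KLA over notx) against change of the H3K27Ac tag sum (x axis, log2) at 6909 loci with the start of a gene tested in GRO-Seq inside. Grey points are all such loci and coloured points members of 5 gene lists; most cytokine and NF-kB genes lie to the upper right, Map3k8 (acetylation change −1.41) does not, and the 10 macrophage identity genes that lost acetylation lie to the lower left, with Nfkbia high in nascent RNA (3.45) at an acetylation change of 0.18.

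Gains and losses ran over neighbouring loci. Of the loci that rose, 39.1% had another higher locus within 50 kb, against 13.8% of all tested loci. Of the loci that fell, 57.3% had another lower locus within 50 kb, against 36.6% of all. Within 80 kb of the Il1b start, which also holds Il1a, the regions of a library summed to 5577 and 7059 tags per 10 M over 68.5 and 77.9 kb in KLA, against 1104 and 1294 tags per 10 M over 13.1 and 17.6 kb in notx. All KLA values were above all notx values. Of the 7 tested loci there, 5 were higher: 2 nearest Il1a (1.87 over its start and 3.46), 1 over Gm14047 (2.79), the Il1b start (2.96) and the distal locus (4.90).

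Around the Irf8 start the picture was the opposite. Within 80 kb the regions summed to 1478 and 813 tags per 10 M over 25.0 and 17.5 kb in KLA, against 5707 and 4324 tags per 10 M over 48.4 and 52.8 kb in notx. Of the 5 tested loci, 4 were lower. These were the locus over the start (−3.18), those that ended at −14.9 and −24.1 kb from it (−1.07, lost after centring, and −1.60) and 1 nearest Cox4i1, upstream of Irf8 (−1.76). The notx regions here were thus both more extended and fuller than the KLA regions.

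**Figure D4:**
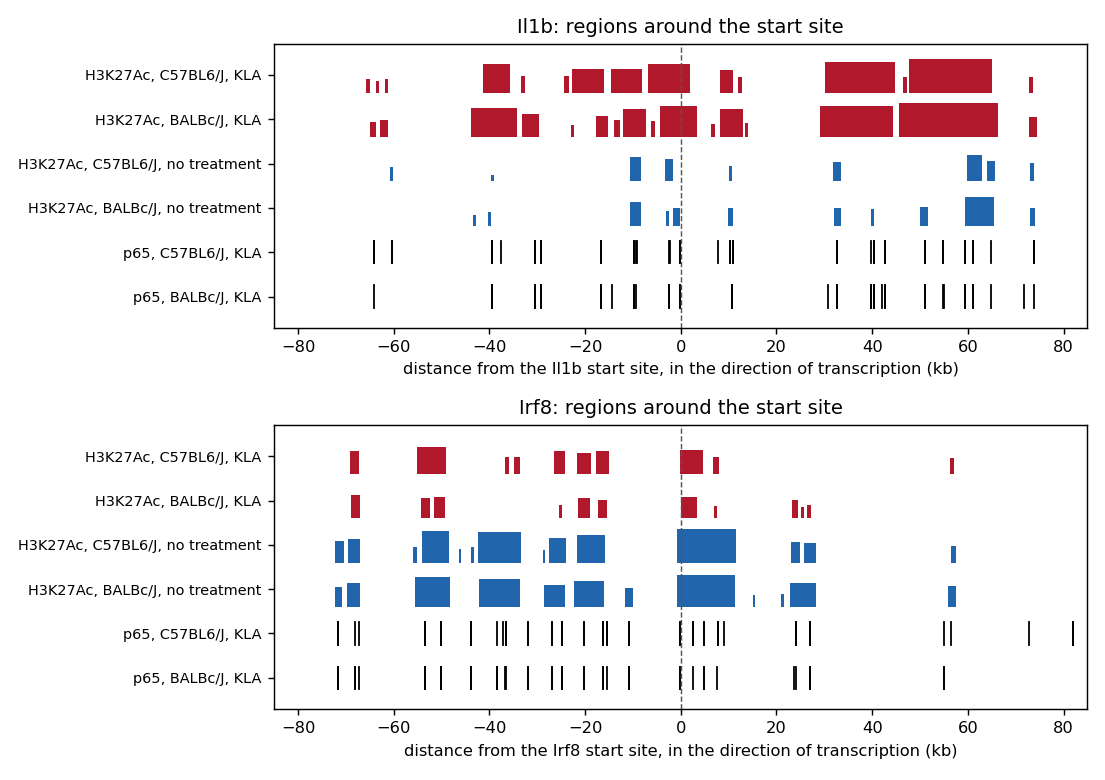
H3K27Ac regions of the 4 libraries around the start sites of Il1b and Irf8, with distance from the start in kb in the direction of transcription on the x axis. Each box is a called region whose height grows with the logarithm of its tags per 10 M, KLA rows stand above notx rows, and ticks mark p65 peaks after KLA; KLA regions cover 68.5 and 77.9 kb within 80 kb of Il1b and notx regions 13.1 and 17.6 kb, while near Irf8 they cover 25.0 and 17.5 kb in KLA and 48.4 and 52.8 kb in notx.

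Acetylation was next set beside transcription of the nearest gene. Over all genes tested, GRO-Seq called 393 genes higher (4.31%) and 1410 lower (15.5%) at 1 hr. RNA-Seq called 195 (1.82%) and 153 (1.43%) at 1 hr and 866 (8.1%) and 2275 (21.3%) at 4 hr. Of loci that rose with the start of a tested gene inside, 124 of 292 had a gene higher in GRO-Seq (42.5%) and 2 a gene lower. Of such loci that fell, 438 of 945 had a gene lower (46.3%) and 1 a gene higher. Over all such loci the shares were 4.23% higher and 13.8% lower.

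In mature RNA more of these genes were called at 4 hr than at 1 hr, as were more genes in all. Of higher loci with a start inside, 59 of 309 had a gene higher in RNA at 1 hr (19.1%) and 162 at 4 hr (52.4%), against 1.82% and 7.69% of all loci with a start inside. Of lower loci with a start inside, 38 of 1049 had a gene lower at 1 hr (3.62%) and 592 at 4 hr (56.4%), against 1.59% and 21.1% of all. By the nearest start, whether inside the locus or not, 282 of 822 higher loci had a gene higher in GRO-Seq (34.3%) and 930 of 2593 lower loci a gene lower (35.9%), against 6.49% and 15.6% of all tested loci. These are counts of loci, and the 822 and 2593 loci share 640 and 1831 genes. Centring the libraries gave 618 genes higher (6.78%) and 645 lower (7.08%) in GRO-Seq over all genes, and 546 of 1453 (37.6%) and 425 of 1652 (25.7%), against 10.1% and 7.60%. The comparison of loci and genes has no test, since neither are replicates.

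Read from the genes, 303 of the 393 genes higher in GRO-Seq had their start in a tested locus. That locus rose for 133 of them (43.9%), fell for 1, and was not called for the rest. Of 1018 genes lower in GRO-Seq with a start in a tested locus, the locus fell for 461 (45.3%) and rose for 1. A higher locus lay within 50 kb of the start of 58.3% of the genes higher in GRO-Seq, against 11.3% of all genes tested. A lower locus lay within 50 kb of 56.5% of the genes lower in GRO-Seq, against 35.5% of all. Across loci, the change in acetylation and the change in nascent RNA of the nearest gene had a Pearson r of 0.47 over 12073 loci and of 0.61 over the 6909 with a start inside. For RNA the values with a start inside were 0.28 at 1 hr and 0.54 at 4 hr over 7623 loci, again with loci that share libraries.

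Of the loci with a start inside, 3 were called in the direction opposite to the nascent RNA of their gene. By the nearest start there were 27 higher loci whose gene was lower in GRO-Seq (3.28% of 822) and 55 lower loci whose gene was higher (2.12% of 2593). Id3, an inhibitor of basic helix-loop-helix factors, lost acetylation, with 233 and 206 tags per 10 M in KLA and 712 and 643 in notx (change −1.58 ± 0.25, SE, limma adjusted p = 0.00102). Its nascent RNA was 29.1 and 91.2 tags per 10 M in KLA and 6.61 and 29.6 in notx (change 1.29), and its RNA at 4 hr fell by 1.36. The loci over Tmcc3 (1.56) and over BC046404 and Mmgt2 (1.16) rose where nascent RNA of Tmcc3 and BC046404 fell by 1.15 each. Centring added 0.35 to every GRO-Seq change, which took both of these falls under the fold threshold.

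Calls were more frequent away from transcription starts. Of loci with a start inside, 4.17% rose and 13.7% fell. Of loci up to 10 kb from a start, 7.75% rose and 32.1% fell, of those 10 to 50 kb away 10.0% and 31.9%, and of those beyond 50 kb 12.7% and 29.9%. After centring, 8.67% rose and 7.21% fell with a start inside, so that gains there exceeded losses. The centred shares were 13.1% and 21.8% up to 10 kb, 15.6% and 23.2% at 10 to 50 kb, and 19.7% and 21.2% beyond. Loci away from starts were also longer, with median lengths of 2887, 3198 and 3391 bp against 2300 bp with a start inside. The part of length was not tested. Strong loci were called more often than weak ones: of 5 bins of equal size by mean tag sum, the lowest had 2.25% that rose and 10.6% that fell, and the highest 11.6% and 30.4%. A start lay inside 31.8% of the loci that rose and 33.1% of those that fell, against 61.3% of those not called.

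Peaks of p65, the NF-kB subunit RelA, were in all 4 p65 lists after KLA at 95.9% of the loci that rose, 76.8% of those that fell and 64.1% of those not called. Longer loci hold more peaks, and among loci with a merged length of 500 to 3000 bp the shares were 84.9%, 56.6% and 50.5%. From 3000 to 6000 bp they were 98.4%, 83.9% and 88.8%, so that lower loci did not exceed loci not called there. PU.1 peaks after KLA were in both strains at 95.1% of higher, 92.5% of lower and 87.5% of uncalled loci, and in notx at 89.3%, 94.5% and 86.3%.

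C/EBPa peaks differed more between treatments. Loci that rose held them in both strains at 92.6% in KLA and 81.7% in notx, with 1.92 and 1.46 peaks per locus. Loci that fell held them at 78.0% in KLA and 85.9% in notx, with 1.42 and 1.60 peaks per locus, and loci not called at 66.5% in KLA and 66.5% in notx. At the Rassf8 locus the mean over strains was 0.5 C/EBPa peaks in KLA and 3 in notx, and 1 PU.1 peak in KLA and 3.5 in notx. At the Ccl5 locus it was 6.5 C/EBPa peaks in KLA and 3 in notx, and 7 PU.1 peaks in KLA and 5 in notx. Not every large change went this way. The C130050O18Rik locus, which fell, held 3.5 C/EBPa peaks in KLA and 3 in notx, and the locus nearest Mir1907, which rose, 4.5 and 5.5. Per 10 kb of locus, higher, lower and uncalled loci held 3.20, 2.94 and 3.49 C/EBPa peaks in KLA. In notx they held 2.44, 3.31 and 3.41. For PU.1 the values were 3.48, 3.70 and 4.57 in KLA and 3.01, 3.90 and 4.46 in notx. For p65 after KLA the values were 3.36, 3.32 and 3.84. By length, loci not called thus held the most peaks of each factor, p65 included. The part of locus length in the shares of PU.1 and C/EBPa was not tested.

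**Figure D5:**
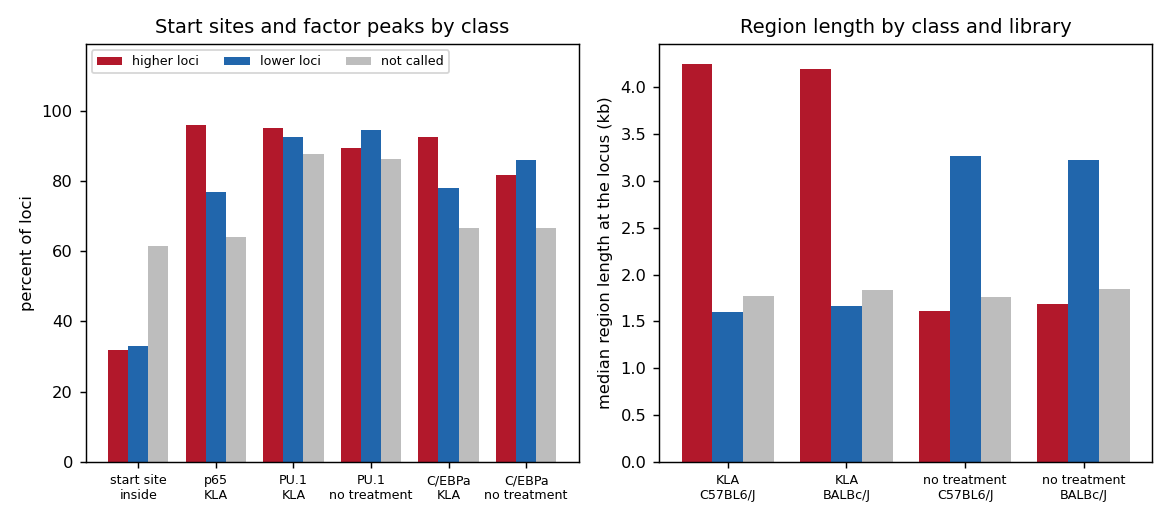
Left, share of loci in percent that hold a transcription start or peaks of p65, PU.1 and C/EBPa in every list of that factor and treatment, for loci higher after KLA, lower after KLA and not called. Right, median covered length in kb in each library for the same classes; higher loci cover 4251 and 4191 bp in KLA and 1613 and 1686 bp in notx, lower loci 1605 and 1661 bp in KLA and 3271 and 3225 bp in notx.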

How the data were processed

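H3K27Ac regions were deposited by the authors as lists per library, called with HOMER and set against input DNA, as the headers of the files record. Bowtie 0.12.7 and mm9 are named in the submitters' processing notes. The tag signal of a region is the authors' own count of tags with at most 1 per position, scaled to 10 M such tags. Libraries held 10.5 to 11.8 M tags, or 6.12 to 7.81 M unique-position tags, per the file headers. The deposited expression table holds log2 of 1 plus exon tags per 10 M, not corrected for length. Use of strand in counting is not stated, and overlapping genes cannot be told apart.

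Regions were merged into loci, and log2(tag sum + 10), log2 covered bp and log2(tags per kb + 1) were fitted with limma 3.58.1 (R 4.3.3, eBayes with trend) on treatment and strain, with 1 residual degree of freedom moderated over loci and Benjamini-Hochberg adjustment. Expression was fitted likewise for genes at 20 tags per 10 M or more in at least 2 libraries. For GRO-Seq the moderation gave an infinite prior, and each p-value uses the pooled spread alone. The strain block pairs the libraries of a strain, whose deviations had a correlation of 0.25 over 15335 loci. On simulated tag sums, the test recovered 69% of 100 changes of 1.5 and 100% of 100 changes of 3, with 11 false calls. That simulation gave all loci a single spread, so it does not show how the test does where the spread varies with level. Alternatives were edgeR 4.0.16 on recovered whole tags, other scalings, pseudocounts, filters, mergings and single strains.

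The described loci are the 15 with the largest changes each way, the 5 largest length changes, the 5 largest differences from H3K4me2, those opposite to GRO-Seq or between strains, and from each gene list the 4 that changed most, with 8 worked examples; members of a list beyond these are named where a count of 10 or fewer is spelled out, after their values were seen. The members and lists were chosen with earlier results of these data known. Locus positions are on mm9, and no mm9 sequence was used here. A gene of the macrophage identity list is counted but not reported here by name.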

Additional observations from a re-analysis of the deposited data

Results flagged for a closer look

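At 416 loci the strains moved in opposite directions by at least 0.5, with 179 up in C57BL6/J and down in BALBc/J and 237 the other way. The difference between strains was not tested, since each strain has 1 library per treatment, and none of these loci was called for KLA against notx. The largest differences in response, C57BL6/J minus BALBc/J on the log2 scale, were at loci nearest St3gal3 (3.97), Zfp619 (3.34), Pisd-ps2 (3.29), Lrr1 (3.02) and Jarid2 (2.97) in one direction, and nearest Med16 (−3.70), Ano9 (−3.64), Il21r (−3.60), Tomm22 (−3.35) and H2-D1 (−3.35) in the other. At the Med16 start the tag sum was 27.9 tags per 10 M in KLA and 320 in notx in C57BL6/J, and 84.5 in KLA and 53.2 in notx in BALBc/J. At the St3gal3 locus it was 120 in KLA and 13.1 in notx in C57BL6/J, and 14.1 in KLA and 57.1 in notx in BALBc/J.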

How the results depend on the processing

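Of the loci called on the tag sum, 615 higher (57.6%) and 1552 lower (45.9%) held the call under all 12 settings that keep the loci. No described locus or gene with a call was called in the opposite direction under another setting. Described loci without a call could pass the fold in opposite directions in the single strains, as did that nearest St3gal3 (2.49 in C57BL6/J and −1.48 in BALBc/J). Under edgeR on recovered whole tags with its own scaling, 1909 loci were higher. Using all tags with repeats and centring, an alternative chosen after seeing the data, gave 1767 higher and 2216 lower; centring alone gave 1856 and 2192. Without the strain block (no replicate block) the tag sum gave 855 higher and 2755 lower, density 72 and 647, and RNA at 1 hr 47 lower. Centring gave density 779 higher and 650 lower, the difference from H3K4me2 1536 and 1662, RNA 78 lower at 1 hr and 1041 at 4 hr, and GRO-Seq 618 higher and 645 lower. Without a trend, length gave 562 longer and 929 shorter and density 149 higher; all tags with repeats gave density 1226 higher. A pseudocount of 50 gave RNA 39 lower at 1 hr and 1280 at 4 hr, and GRO-Seq 221 higher and 330 lower; no filter gave RNA 66 lower at 1 hr. Single strains, counted past the fold alone with no test, gave length 2232 to 2454 longer and 3885 to 3994 shorter, density 1376 to 1668 higher and 5043 to 6091 lower, the difference from H3K4me2 1400 to 1458 higher, RNA at 1 hr 236 to 320 lower and GRO-Seq 900 to 2298 lower. A locus near 1 tag has a change that rests on the pseudocount.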
